A study of Mus musculus with 8 samples.

Results

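Among 10 genes that act directly downstream of the mu opioid receptor, the GIRK3 channel subunit gene Kcnj9 and the G protein alpha subunit gene Gnaz were higher in nucleus accumbens libraries from mice given morphine than in those from mice given saline, and the other 8 genes did not pass the test. The genes were chosen by name, as immediate effectors and desensitizers of that receptor, with earlier results of these data known. All 10 of the 10 symbols were found among the 22337 genes of the deposited table. They are the channel subunit genes Kcnj3, Kcnj6 and Kcnj9, the Gi/o alpha subunit genes Gnai1, Gnai2, Gnao1 and Gnaz, the beta-arrestin genes Arrb1 and Arrb2, and the receptor kinase gene Grk3, which the table lists under its older symbol Adrbk2. The study profiled the nucleus accumbens, a region of the ventral striatum, by RNA-seq in male C57BL/6 mice, with 4 morphine and 4 saline libraries, and asked how its transcriptome differs after chronic exposure to morphine. The sources used here give no dose, schedule or age. Nothing in the labels ties each replicate to its own animal, so p-values reflect only how far the 8 libraries scatter, and that scatter could be technical.

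The mu opioid receptor, which morphine activates, couples to heterotrimeric G proteins of the Gi/o class. On activation the alpha subunit inhibits adenylyl cyclase, and the freed beta-gamma dimer opens GIRK channels, inwardly rectifying potassium channels built from 4 subunits that hyperpolarize the neuron. Receptor kinases of the GRK family then phosphorylate the active receptor, and beta-arrestins bind it, uncouple it from the G protein and promote its internalization.

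The stretches before the RefSeq transcription start (build GRCm38.p6) are shown for the GIRK genes because they include the member with the largest difference, Kcnj9, beside its 2 channel partners. Each run is the 250 bases before the start, 5′ to 3′ on the strand of the gene, with CG pairs and any TATAAA in capitals. Kcnj9 lies at chr1:172329323-172329572 on the minus strand, Kcnj3 at chr2:55435720-55435969 on the plus strand, and the distal start of Kcnj6 at chr16:94997697-94997946 on the minus strand.
Kcnj9: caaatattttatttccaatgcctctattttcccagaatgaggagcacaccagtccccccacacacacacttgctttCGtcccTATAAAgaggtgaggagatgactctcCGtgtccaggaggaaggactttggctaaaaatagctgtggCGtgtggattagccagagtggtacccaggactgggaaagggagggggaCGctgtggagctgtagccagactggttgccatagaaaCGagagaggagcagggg
Kcnj3: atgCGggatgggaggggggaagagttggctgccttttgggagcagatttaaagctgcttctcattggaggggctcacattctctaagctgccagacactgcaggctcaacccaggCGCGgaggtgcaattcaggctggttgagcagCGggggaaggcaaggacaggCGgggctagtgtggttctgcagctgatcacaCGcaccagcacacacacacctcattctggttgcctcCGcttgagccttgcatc
Kcnj6: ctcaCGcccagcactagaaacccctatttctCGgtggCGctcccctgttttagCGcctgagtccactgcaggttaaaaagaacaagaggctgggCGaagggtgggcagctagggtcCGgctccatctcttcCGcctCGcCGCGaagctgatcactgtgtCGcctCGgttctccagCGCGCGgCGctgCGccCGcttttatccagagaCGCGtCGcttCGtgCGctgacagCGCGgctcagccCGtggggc
The Kcnj9 stretch was the poorest of the 3 in CG pairs, with 5 and a GC content of 52.0%. Kcnj3 had 7 and 58.4%, and the distal start of Kcnj6 had 26 and 64.0%. The other Kcnj6 start, not shown, had 7 and 65.6%. The median over 32851 promoters of the same set was 6 CG pairs and 52.4%. The cyclic AMP response element TGACGTCA, searched on both strands, was in none of the 3 and in 1.55% of all promoters, and its half-site TGACG, which the full element contains, was in none of the 3 and in 17.8% of all. The letters TATAAA occurred once, in Kcnj9, starting 168 bases before the start, and in 12.4% of all promoters. RefSeq promoters were matched for 5 of the 10 genes.

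The authors deposited FPKM, a level scaled to transcript length and to library size, so levels can be set side by side between genes, though only approximately. Differences between genes in capture or amplification were not tested. Library sums ran from 486547.6 to 501627.6 in morphine and from 480003.6 to 540104.1 in saline, and the read depth is unknown. The share of mitochondrially encoded genes was 6.10 to 7.94% in morphine and 9.09 to 12.6% in saline libraries. The saline library of replicate 3 stood apart, with a mean correlation of 0.947 with the other 7 libraries (0.968 to 0.974 for the rest, across 12536 genes). Of 17 markers of striatal projection neurons, 12 fell with morphine. Their summed level was 256.4 to 421.4 FPKM in the morphine libraries, against 5244 FPKM in saline replicate 3 and 1068 to 1285 FPKM in the other saline libraries. Of 9 tested markers of cortical glutamatergic neurons 1 rose, and their summed level was 205.6 to 261.2 FPKM in morphine, against 42.7 FPKM in saline replicate 3 and 178.0 to 182.2 FPKM in the other saline libraries. No marker of either list was at 0 in any library. Among the striatal markers that passed, Ppp1r1b had 64.6 to 118 FPKM in morphine and 318 to 1454.6 FPKM in saline libraries. Drd1 passed too, with 2.16 to 7.16 FPKM in morphine and 19.9 to 87.2 FPKM in saline. Drd2 and Bcl11b were among the 5 of that list that did not pass. Drd2 had 0.17 to 0.55 FPKM in morphine and 1.85 to 23.1 FPKM in saline. Bcl11b had 23.8 to 38.7 FPKM in morphine and 25.5 to 43.3 FPKM in saline. The cortical marker Slc17a7 did not pass either, at 106 to 139 FPKM in morphine, against 19.6 FPKM in saline replicate 3 and 90.8 to 98.0 FPKM in the other saline libraries. Of the other marker lists, 3 of 12 astrocyte genes, 3 of 10 endothelial genes and 1 of 5 interneuron genes fell, and 0 of 10 oligodendrocyte, 0 of 9 microglial and 0 of 6 general neuronal genes passed. In bulk tissue of this kind, fewer cells of a type and less RNA per cell cannot be told apart.

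All 10 genes were high enough to be tested, which took an FPKM of 1 or more in 4 or more libraries. Of the 10, 2 were higher with morphine and 0 were lower by limma on log2(FPKM + 1), at a Benjamini-Hochberg adjusted p under 0.05 over all 12536 genes tested, of which 2.52% passed, 1.04% higher and 1.48% lower. At an unadjusted p under 0.05 there were 3 of the 10, where 20.1% of all tested genes reached it. The 4 morphine values lay entirely above the 4 saline values for the same 2 genes, where 12.7% of all tested genes had groups that did not overlap, 6.56% with morphine higher. The median of the 10 differences was 0.37 on the log2 scale, morphine minus saline, against 0.01 over all tested genes, with 7 positive and 3 negative. Because the list was chosen with earlier results known, these counts and medians do not measure enrichment. Differences are given on this log2(FPKM + 1) scale with their standard error (SE), and adjusted p-values are those of limma over all genes tested.

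**Figure D1:**
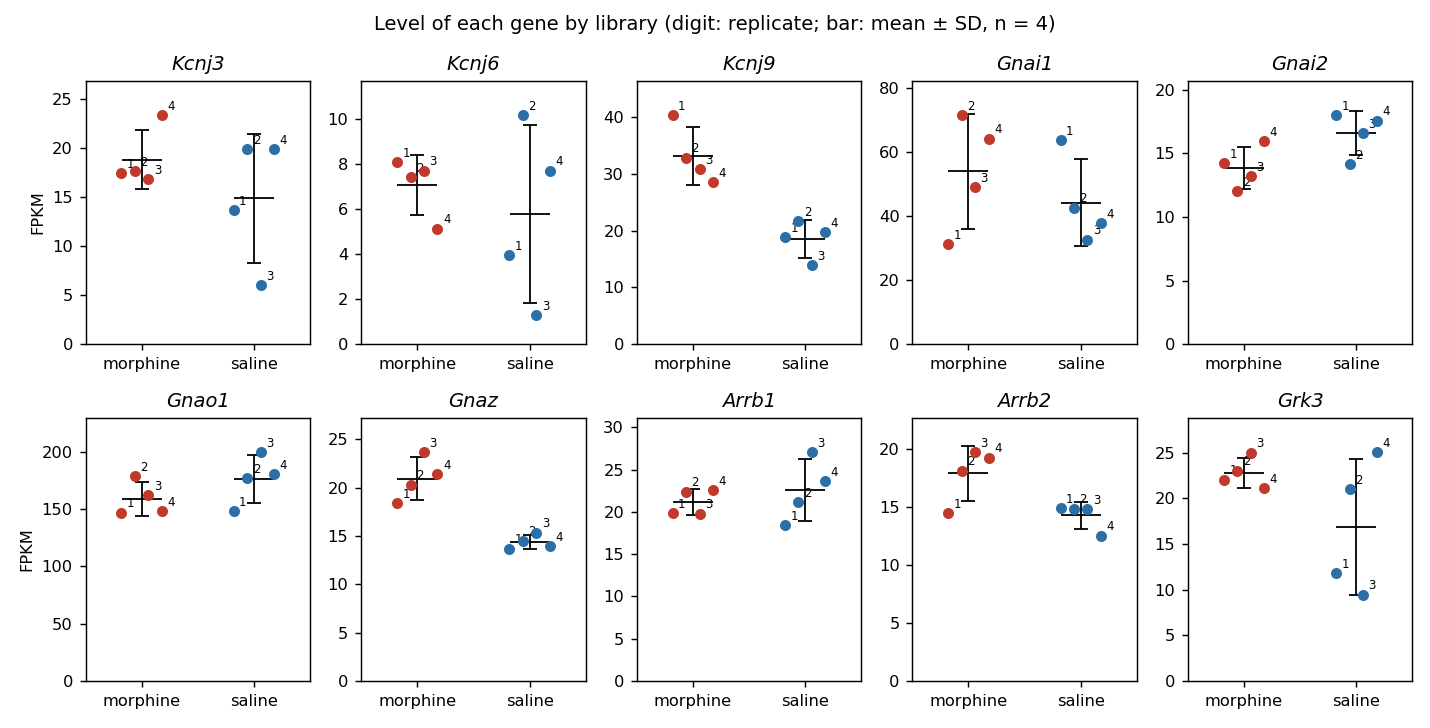
Level in FPKM (vertical axes, each from 0) of the 10 genes in each of the 4 morphine (red) and 4 saline (blue) libraries, with the replicate number beside each point and the mean ± SD as a bar. For Kcnj9 and Gnaz every morphine library lies above every saline library, while in Kcnj3, Kcnj6 and Grk3 the saline libraries spread widely, with replicate 3 the lowest.

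Levels spanned a wide range, and Gnao1 stood above the other 9 genes in both groups. It averaged 159 ± 14.7 FPKM in morphine and 176 ± 21.2 FPKM in saline (SD, n = 4 each), and no range of another member reached it. Gnai1 came next with 53.9 ± 17.8 FPKM in morphine and 44.2 ± 13.6 FPKM in saline. In the morphine libraries Kcnj9 came after Gnai1, and its range of 28.5 to 40.3 FPKM overlapped that gene's and lay clear of Grk3 below it. Grk3, Arrb1, Gnaz, Kcnj3, Arrb2 and Gnai2 followed in that order with means of 22.8 to 13.9 FPKM, and each overlapped its neighbour. In the saline libraries Gnai1 lay clear of the genes below it, and the order was Arrb1, Kcnj9, Grk3, Gnai2, Kcnj3, Gnaz and Arrb2, with means of 22.6 to 14.2 FPKM and each range overlapping the next. Kcnj6 was lowest in both groups, at 7.07 ± 1.33 FPKM in morphine and 5.77 ± 3.93 FPKM in saline (SD, n = 4 each), and its range did not overlap that of the gene above it.

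Among the GIRK subunits, Kcnj9 rose with morphine and Kcnj3 and Kcnj6 did not pass. Kcnj9 (ENSMUSG00000038026, chromosome 1, 172320501 to 172329318, minus strand, GRCm38) encodes GIRK3, a subunit that joins other GIRK subunits and carries endosomal sorting signals. It had 40.3, 32.9, 30.8 and 28.5 FPKM in the morphine libraries of replicates 1 to 4, against 18.9, 21.7, 13.9 and 19.7 FPKM in the saline libraries. The lowest morphine library was above the highest saline library. The means were 33.1 ± 5.12 FPKM in morphine and 18.5 ± 3.33 FPKM in saline (SD, n = 4 each), a difference of 0.81 ± 0.15 (SE), or 1.75-fold with a 95% interval of 1.38 to 2.22, and limma gave an adjusted p of 0.0319. Its place was 122 of 12536 when genes were ordered by p.

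The call for Kcnj9 was lost when most of the libraries were left out singly. The gene still passed without saline replicate 3 (0.68 ± 0.13, adjusted p = 0.0311) or saline replicate 4 (0.84 ± 0.17, adjusted p = 0.0362). It missed the threshold without any 1 of the 4 morphine libraries or saline replicates 1 or 2, with adjusted p between 0.0633 and 0.0999 and differences between 0.71 and 0.89. In those fits the calls over all tested genes also fell, to between 0 and 102, against 316 with all libraries. Adding the mean striatal marker level as a covariate gave a Kcnj9 difference of 0.40 ± 0.28 (adjusted p = 0.711). With that of the cortical markers it was 0.60 ± 0.15 (adjusted p = 0.111). The striatal mean, on the log2 scale, was 2.512 to 3.25 in morphine and 4.545 to 6.911 in saline libraries. Since it separates the groups completely, any fit with it can hardly tell treatment from the covariate. The cortical mean was 3.402 to 3.612 in morphine and 1.867 to 3.366 in saline libraries. It separates the groups too, by a narrower gap, so fits with it share that limit. With the replicate number as a block the adjusted p was 0.0644. About 4.01% of its exonic length is overlapped on the opposite strand by the antisense gene Gm36937, whose reads cannot be separated from those of Kcnj9 because no strand setting is given.

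Kcnj3 and Kcnj6 encode GIRK1 and GIRK2, and GIRK1 needs a partner such as GIRK2 to reach the cell surface. Kcnj3 (ENSMUSG00000026824, chromosome 2, 55435970 to 55598145, plus strand) had 17.5, 17.7, 16.8 and 23.4 FPKM in the morphine libraries of replicates 1 to 4, against 13.7, 19.9, 6.03 and 19.9 FPKM in the saline libraries. The groups overlapped, and saline replicate 3 was the lowest library of all. The difference was 0.43 ± 0.31 (SE; 95% interval −0.24 to 1.11; limma adjusted p = 0.466), and without saline replicate 3 it was 0.08 ± 0.16. Kcnj3 shares 31.1% of its exonic length with Gm26794, a noncoding gene on the opposite strand, so its values are uncertain to that extent. Kcnj6 (ENSMUSG00000043301, chromosome 16, 94748636 to 94997701, minus strand) had 8.06, 7.41, 7.70 and 5.12 FPKM in the morphine libraries, against 3.96, 10.2, 1.28 and 7.70 FPKM in the saline libraries. The saline libraries spread on both sides of the morphine libraries, from the lowest to the highest of all 8. The Kcnj6 difference was 0.47 ± 0.41 (SE; 95% interval −0.44 to 1.38; limma adjusted p = 0.565), and 0.03 ± 0.26 without saline replicate 3. Kcnj3 and Kcnj6 changed sign with either marker mean as a covariate, to −1.002 ± 0.34 and −1.31 ± 0.53 with the striatal and −0.13 ± 0.20 and −0.27 ± 0.28 with the cortical mean, and did not pass in those fits.

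The summed level of the 3 GIRK genes was 65.8, 57.9, 55.3 and 56.98 FPKM in the morphine libraries of replicates 1 to 4, against 36.5, 51.8, 21.2 and 47.3 FPKM in the saline libraries. Each morphine sum exceeded each saline sum, but the sum includes Kcnj9, whose groups do not overlap, so this is not a separate result. Kcnj9 made up 55.9 ± 4.61% of that sum in morphine and 50.2 ± 11.2% in saline (SD, n = 4 each), and the groups overlapped, with the highest Kcnj9 share of all, 65.5%, in saline replicate 3. The difference in the Kcnj9 share was 5.71 percentage points with all 8 libraries. It was 10.8 without saline replicate 3, 2.96 without saline replicate 2 and 2.86 without saline replicate 4, and 3.93 to 7.67 without any 1 of the others. Kcnj9 exceeded Kcnj3 in 7 of 8 libraries, and Kcnj3 exceeded Kcnj6 in 8 of 8. The other GIRK gene, Kcnj5, was too low to test, at a mean of 0.0925 FPKM in morphine and 0.153 FPKM in saline.

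**Figure D2:**
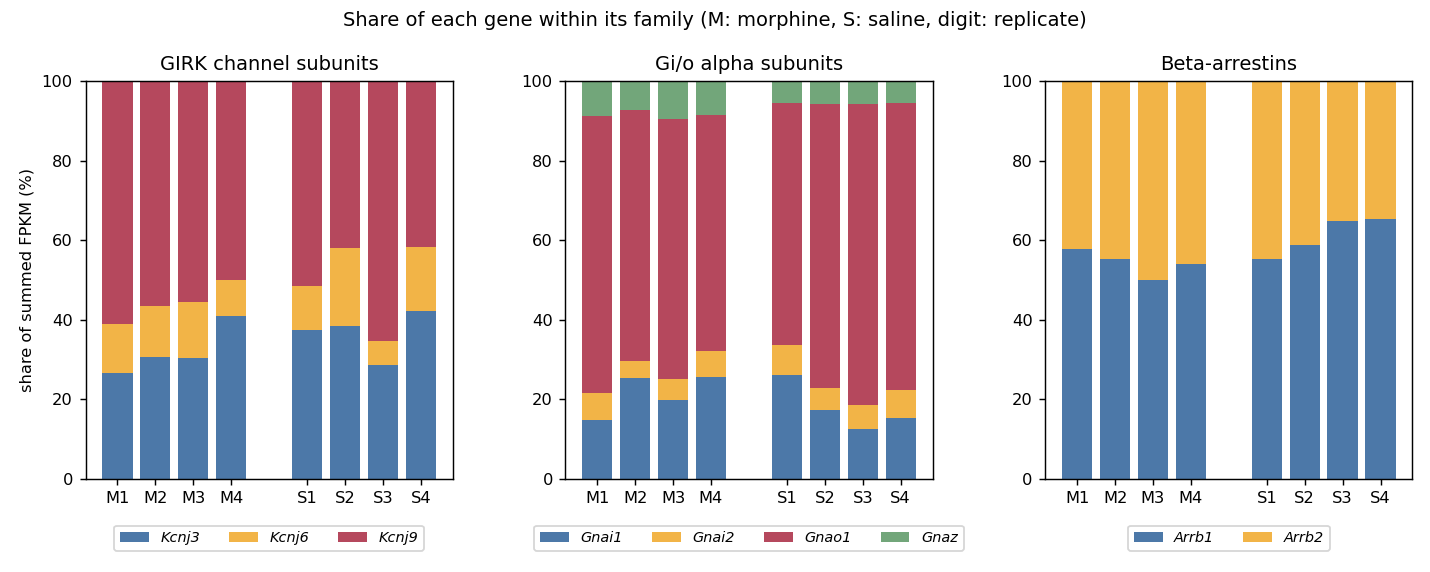
Share of each gene in the summed FPKM of its family (vertical axis, percent) in each morphine (M) and saline (S) library, for the GIRK subunits, the Gi/o alpha subunits and the beta-arrestins. The Gnaz share is 7.198 to 9.56% in morphine and 5.58 to 5.86% in saline libraries, and Kcnj9 holds its highest share, 65.5%, in saline replicate 3.

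Of the 4 Gi/o alpha subunit genes, Gnaz rose with morphine and the other 3 did not pass. Gnaz (ENSMUSG00000040009, chromosome 10, 74967177 to 75016907, plus strand, GRCm38) encodes Gz, a member of the class that is resistant to pertussis toxin and hydrolyses GTP slowly. It had 18.4, 20.3, 23.7 and 21.4 FPKM in the morphine libraries of replicates 1 to 4, against 13.7, 14.5, 15.3 and 13.9 FPKM in the saline libraries. The groups did not overlap, and the saline libraries were close together, with a coefficient of variation of 10.6% in morphine and 5.11% in saline. The difference was 0.51 ± 0.11 (SE), or 1.42-fold with a 95% interval of 1.20 to 1.68, and limma gave an adjusted p of 0.0449.

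That value lay near the threshold, and leaving out any library but saline replicate 3 moved it past. Without saline replicate 3 Gnaz passed (0.54 ± 0.12, adjusted p = 0.0450). Without any 1 of the other 7 libraries the adjusted p lay between 0.0610 and 0.139, with differences of 0.45 to 0.57. After removal of the mitochondrial genes and rescaling it was 0.47 ± 0.12 (adjusted p = 0.0731). With the striatal mean as a covariate it was 0.54 ± 0.23 (adjusted p = 0.507), and with the cortical mean 0.56 ± 0.13 (adjusted p = 0.0956). With the replicate number as a block the adjusted p was 0.0932. No stretch of 50 bases of the Gnaz transcripts occurs in transcripts of another gene.

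**Figure D3:**
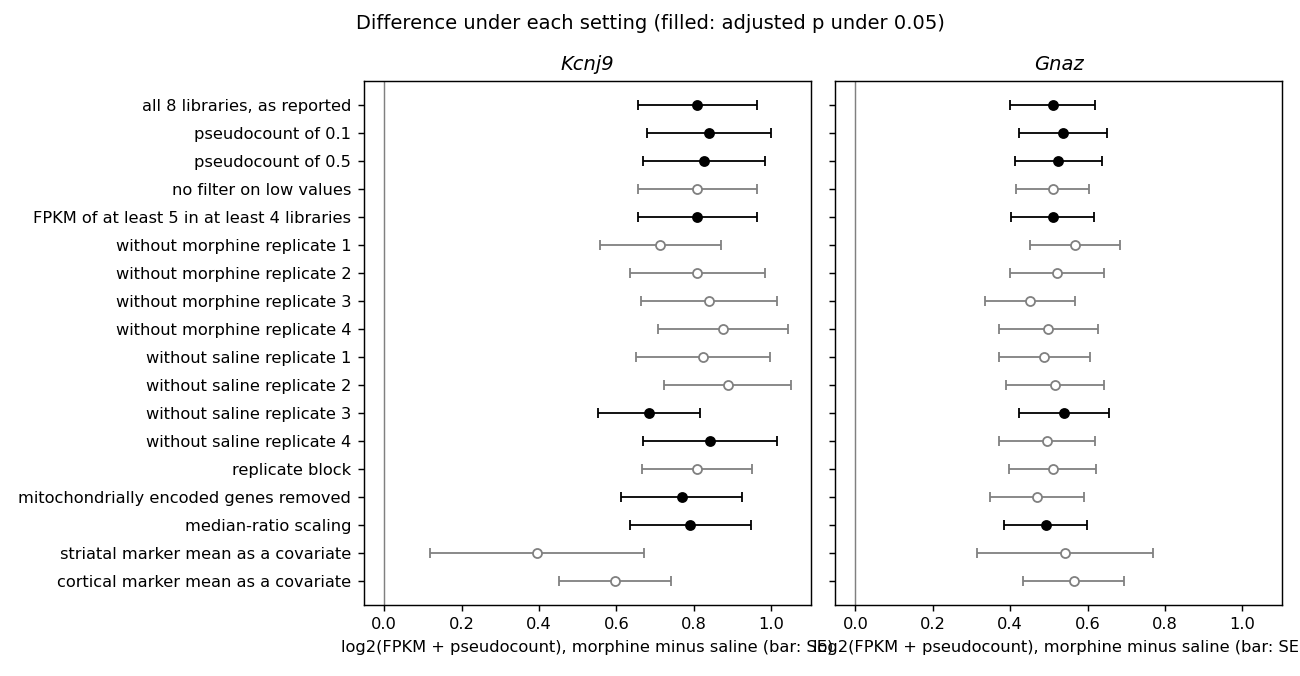
Difference between morphine and saline (horizontal axes, log2 scale, with SE as bars) for Kcnj9 and Gnaz with all 8 libraries and under each of 17 other settings, filled where the adjusted p was under 0.05. All points lie above 0, Kcnj9 between 0.40 and 0.89 and Gnaz between 0.45 and 0.57, but Kcnj9 passed under 7 and Gnaz under 5 of the 17. As the groups of neither gene overlap, leaving out a library or changing the pseudocount could not turn the sign.

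Gnao1 (ENSMUSG00000031748, chromosome 8, 93809966 to 93969388, plus strand) encodes Go, the most abundant alpha subunit of neurons. It had 147, 178, 162 and 148 FPKM in the morphine libraries of replicates 1 to 4, against 148, 177, 199.5 and 180.4 FPKM in the saline libraries. The groups overlapped, and the difference was −0.15 ± 0.12 (SE; 95% interval −0.40 to 0.11; limma adjusted p = 0.527). Gnai1 (ENSMUSG00000057614, chromosome 5, 18265135 to 18360355, minus strand), which encodes an inhibitory subunit common in brain, had 31.1, 71.4, 48.9 and 64.1 FPKM in the morphine libraries, against 63.6, 42.5, 32.6 and 37.8 FPKM in the saline libraries. It varied more within each group than the other alpha genes, with a coefficient of variation of 33.1% in morphine and 30.8% in saline, where the median over all tested genes was 14.3% in morphine and 17.3% in saline. Its difference was 0.26 ± 0.26 (SE; 95% interval −0.32 to 0.84; limma adjusted p = 0.628). Gnai2 (ENSMUSG00000032562, chromosome 9, 107614125 to 107635367, minus strand), whose product is found in many cell types including immune cells, had 14.3, 12.03, 13.2 and 15.9 FPKM in the morphine libraries, against 17.99, 14.2, 16.6 and 17.6 FPKM in the saline libraries. Saline replicate 2 fell among the morphine values, and the difference was −0.24 ± 0.12 (SE; 95% interval −0.52 to 0.03; limma adjusted p = 0.305).

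The summed level of the 4 alpha genes was 247 ± 29.2 FPKM in morphine and 251 ± 8.93 FPKM in saline (SD, n = 4 each). Within that sum Gnao1 took 64.4 ± 4.31% in morphine and 70.0 ± 6.35% in saline, and Gnaz took 8.51 ± 0.980% in morphine and 5.71 ± 0.139% in saline. The Gnaz shares did not overlap between the groups. Gnaz exceeded Gnai2 in 4 of 4 morphine libraries and in 1 of 4 saline libraries.

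The desensitization genes gave no call in either direction. Arrb2 (ENSMUSG00000060216, chromosome 11, 70432635 to 70440828, plus strand) encodes beta-arrestin 2, the arrestin most studied at the mu opioid receptor. It had 14.5, 18.1, 19.7 and 19.2 FPKM in the morphine libraries of replicates 1 to 4, against 14.9, 14.8, 14.8 and 12.5 FPKM in the saline libraries. Of the 4 morphine libraries, 3 lay above every saline library and replicate 1 lay among them. The difference was 0.30 ± 0.13 (SE; 95% interval 0.02 to 0.58), with an unadjusted p of 0.0357 and a limma adjusted p of 0.212. Arrb1 (ENSMUSG00000018909, chromosome 7, 99535466 to 99606771, plus strand), which encodes beta-arrestin 1, had 19.9, 22.4, 19.8 and 22.6 FPKM in morphine, against 18.5, 21.1, 27.1 and 23.7 FPKM in saline. The saline range enclosed the morphine range, and the difference was −0.08 ± 0.13 (SE; 95% interval −0.36 to 0.21; limma adjusted p = 0.777). It was 0.01 ± 0.12 without saline replicate 3.

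Arrb1 exceeded Arrb2 in 8 of 8 libraries. The Arrb2 share of the arrestin sum was 42.1, 44.7, 49.9 and 46.0% in the morphine libraries of replicates 1 to 4, against 44.6, 41.3, 35.3 and 34.6% in the saline libraries, so the groups overlapped through saline replicate 1. The arrestin sum itself was 39.0 ± 3.27 FPKM in morphine and 36.8 ± 3.59 FPKM in saline (SD, n = 4 each).

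Grk3 (ENSMUSG00000042249, chromosome 5, 112910482 to 113015791, minus strand) encodes a kinase that beta-gamma dimers recruit to active receptors. It had 22.1, 23.1, 25.0 and 21.1 FPKM in the morphine libraries of replicates 1 to 4, against 11.8, 21.04, 9.43 and 25.1 FPKM in the saline libraries. The morphine libraries were close together, while the saline libraries fell into a pair near the morphine level and a pair well below it, replicates 1 and 3. The difference was 0.51 ± 0.26 (SE; 95% interval −0.05 to 1.08; limma adjusted p = 0.295), as large as that of Gnaz but with a wider error, and 0.29 ± 0.21 without saline replicate 3. With the striatal mean as a covariate it changed sign, to −0.40 ± 0.40 (adjusted p = 0.816). Its nearest relative Grk2, the widely expressed kinase of the same subfamily, averaged 20.5 FPKM in morphine and 18.7 FPKM in saline and did not pass (0.13 ± 0.13, adjusted p = 0.631).

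**Figure D4:**
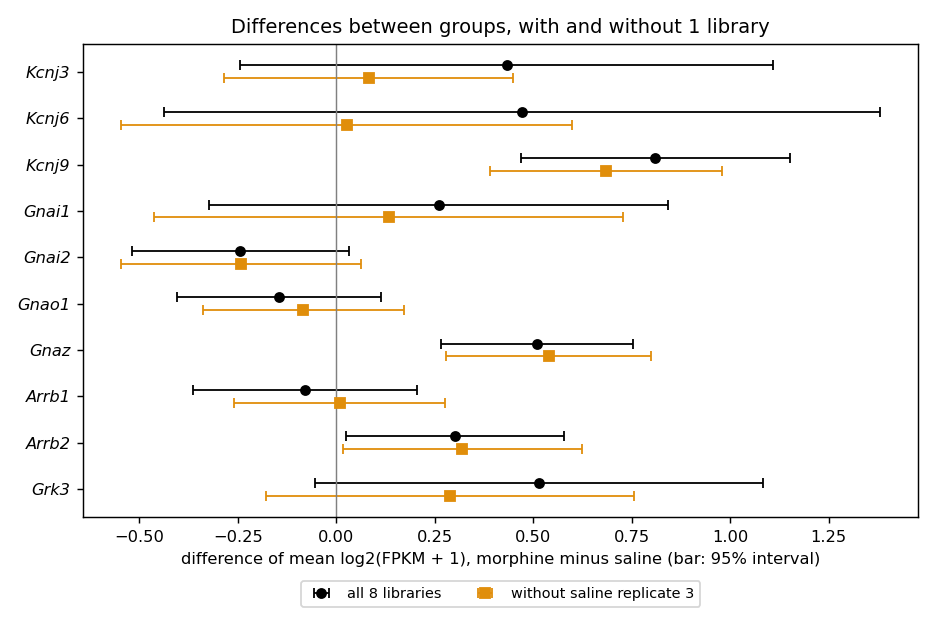
Difference in mean log2(FPKM + 1), morphine minus saline (horizontal axis), with the 95% interval for each of the 10 genes, over all 8 libraries (black circles) and without saline replicate 3 (orange squares). The values of Kcnj3 and Kcnj6 move to 0.08 and 0.03 without that library, while Kcnj9 and Gnaz stay at 0.68 and 0.54 with intervals above 0.

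Saline replicate 3 was the lowest of the 8 libraries for 4 of the 10 genes, Kcnj3, Kcnj6, Kcnj9 and Grk3, and the highest for 2, Gnao1 and Arrb1. Among all tested genes that library was the lowest for 19.9% and the highest for 20.8%, more often than any other library. The morphine libraries were more uniform than the saline libraries for Kcnj3, with a coefficient of variation of 16.1% in morphine and 44.3% in saline, for Kcnj6, with 18.8% in morphine and 68.1% in saline, and for Grk3, with 7.26% in morphine and 44.2% in saline. The summed striatal and cortical marker levels given above moved with the same library, and their part in these values was not tested beyond the fits with a covariate.

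None of the other genes of the pathway passed. A list of 44 genes for further alpha subunits, beta and gamma subunits, receptor kinases, visual arrestins, Kcnj5 and modulators of Gi/o signalling held 33 tested genes, of which limma called 0 in either direction. At an unadjusted p under 0.05 there were 9, or 27.3%, where 20.1% of all tested genes reached it. The groups did not overlap for 4 of the 33, where 12.7% of all tested genes had such groups. Of these, Gng7 and Gnal were lower with morphine, and Gng4 and Gprin1 were higher. Gng4, a gamma subunit gene, had the most positive difference of the list, 0.92 ± 0.34 (adjusted p = 0.174). The median difference of the 33 was 0.08, against 0.01 over all tested genes, with 19 positive and 14 negative. Among 4 tested beta subunit genes the smallest p belonged to Gnb4 (−0.32 ± 0.17, adjusted p = 0.331) and Gnb1 (0.20 ± 0.16, adjusted p = 0.543). The remaining inhibitory alpha gene, Gnai3, had 0.16 ± 0.13 (adjusted p = 0.550), and the low-level kinase gene Grk5 had 0.06 ± 0.15 and the visual arrestin gene Sag 0.08 ± 0.14. Of 6 tested modulators, Gprin1, which encodes a protein that binds activated Go, had 0.69 ± 0.22 (adjusted p = 0.118). Ric8b, a chaperone gene for stimulatory alpha subunits, had −0.73 ± 0.32 (adjusted p = 0.235).

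The most negative differences in that list were those of subunits known for their high level in striatum. Gng7, a gamma subunit gene, had 111, 141, 149 and 132 FPKM in the morphine libraries of replicates 1 to 4, against 205, 201, 832 and 243 FPKM in the saline libraries. The groups did not overlap, and saline replicate 3 stood far above the rest. The Gng7 difference was −1.19 ± 0.39 (adjusted p = 0.126), and without saline replicate 3 it was −0.70 ± 0.13 and passed (adjusted p = 0.0233). Gnal, which encodes Golf, the stimulatory alpha subunit that couples dopamine D1 receptors to adenylyl cyclase, had 39.0, 54.7, 44.9 and 38.1 FPKM in the morphine libraries, against 66.3, 69.0, 163 and 69.8 FPKM in the saline libraries. Each morphine library was below each saline library. The Gnal difference was −0.94 ± 0.26 (adjusted p = 0.0874), and −0.63 ± 0.13 without saline replicate 3 (adjusted p = 0.0385). Both changed sign with the striatal mean as a covariate, to 0.71 ± 0.37 for Gng7 and 0.28 ± 0.30 for Gnal, and did not pass there. Gng2, another gamma subunit gene, had 0.59 ± 0.19 (adjusted p = 0.130), and Gna15, an alpha subunit gene of the Gq class, had 0.38 ± 0.15 (adjusted p = 0.195).

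**Figure D5:**
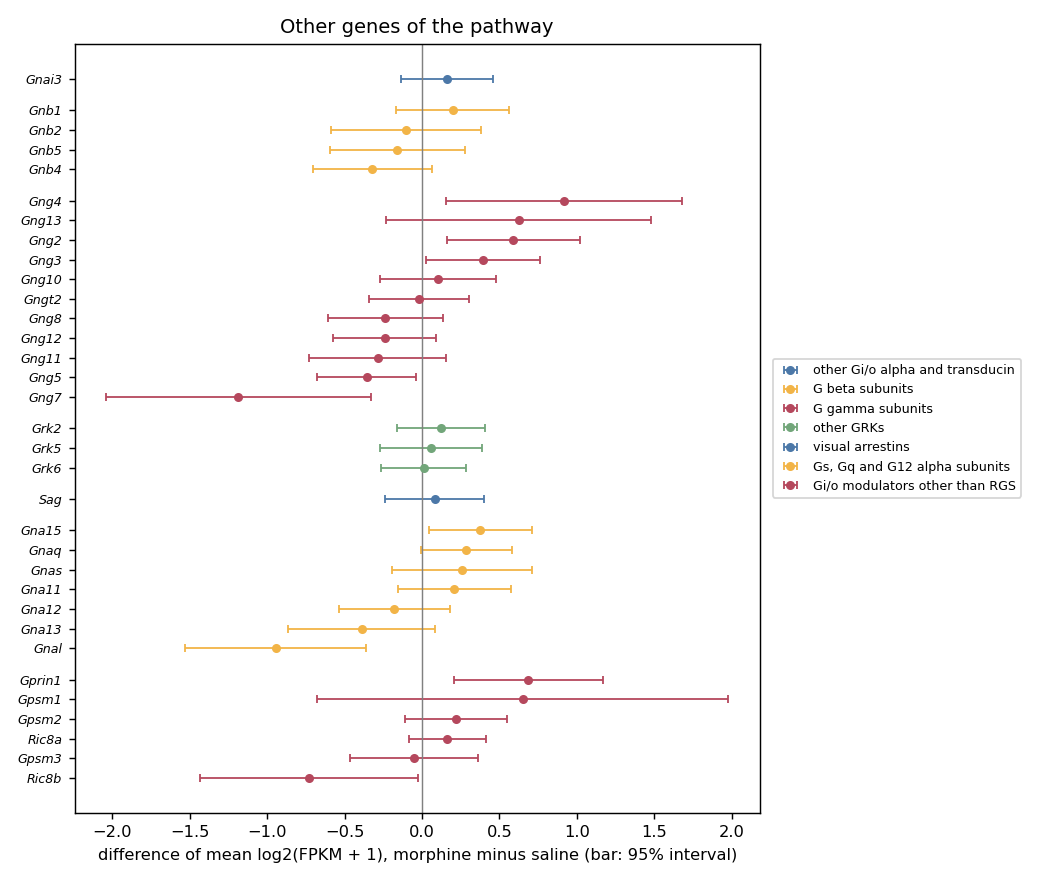
Difference in mean log2(FPKM + 1), morphine minus saline (horizontal axis), with its 95% interval for the 33 tested genes of the pathway other than the 10, coloured and grouped by list. Gng7 and Gnal lie lowest, at −1.19 and −0.94, and none of the 33 passed.

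The genes whose library profile was most like that of Kcnj9 were Sstr2, Ralgps2 and Otub2. Likeness was the mean absolute difference over the 8 libraries between log2(FPKM + 1) values centred on the mean of each gene, and it was 0.0778, 0.102 and 0.104. Sstr2, a somatostatin receptor gene, had 16.8, 11.9, 11.95 and 11.6 FPKM in the morphine libraries of replicates 1 to 4, against 6.81, 8.10, 5.33 and 8.95 FPKM in the saline libraries. As for Kcnj9, morphine replicate 1 was its highest and saline replicate 3 its lowest library. For Gnaz the nearest profiles were those of Gtf2f2, Dcakd and Zbtb21, at 0.0445, 0.0787 and 0.0811. Gtf2f2, a general transcription factor gene, had 8.99, 10.3, 11.3 and 10.3 FPKM in the morphine libraries, against 7.57, 7.05, 7.59 and 6.70 FPKM in the saline libraries, and did not pass (adjusted p = 0.0715).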

How the data were processed

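Trizol-extracted RNA was reverse transcribed with oligo-dT and template switching, and the PCR-amplified cDNA was read on a NovaSeq, per the labels' protocols. No molecular identifiers or strand marking are named. The authors deposited 1 table of FPKM values, which has a column for each library and 2 decimals, per the file headers. Per the submitters' processing notes, the tools were RSEM, HISAT2, StringTie 1.3.1, fastp 0.18.0 and Bowtie2 2.2.8, and the build was mm10. The sources used here do not give their roles. FPKM is a share of the library, so a class of transcripts that takes a larger share lowers all others.

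Whether whole reads are kept could not be decided: of 9861 low values, 21.1% came within 0.1 of a whole multiple of the smallest value for that gene, where an even spread gives 20%. Depth is therefore unknown and no count model was used. Symbols and coordinates are those of GENCODE M21 (GRCm38), which matched 22232 of 22337 identifiers. Morphine was compared with saline by limma 3.58.1 in R 4.3.3 (trend, two-sided) on log2(FPKM + 1) for the 12536 genes that reached an FPKM of 1 in 4 or more libraries. The script was tested on simulated data. There a log2 difference of 0.5 was found for 18.8% of the changed genes, of 1 for 75.1% and of 2 for 95.9%. A gene that did not pass may therefore still differ, even by a log2 difference of 1 or more.

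The members and lists were chosen with earlier results of these data known. Named are all 10 members, of each pathway list the genes that pass or else the 2 with the smallest p, and the 3 nearest profiles of each member that passes. Kcnj5 and Gng4 fall outside that rule and were named, and the promoters were chosen, after values were seen. Alternatives were other pseudocounts (0.1, 0.5), no filter or a minimum FPKM of 5, each library left out, the replicate number as a block, removal of mitochondrial genes, median-ratio scaling, and marker means as covariates.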

Additional observations from a re-analysis of the deposited data

Results flagged for a closer look

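In 7 of 44 groups of 4 libraries examined, 1 library lay far from the other 3 for a named gene. The measure was the ratio of its gap to the range of the group. Chance gives about 1 in 20 such groups if values are normally distributed and groups are independent. The groups here share the same libraries, so the 7 cannot be held against that rate. Of the 10 members, Kcnj3 had 23.4 FPKM in morphine replicate 4 and 16.8 to 17.7 FPKM in the other morphine libraries, and Arrb2 had 12.5 FPKM in saline replicate 4 and 14.8 to 14.9 FPKM in the other saline libraries. Among the other pathway genes, Gnai3 had 10.98 FPKM in morphine replicate 1, against 13.4 to 13.8 FPKM in the other morphine libraries, and Gnb4 had 23.5 FPKM in morphine replicate 2, against 15.9 to 16.3 FPKM. Saline replicate 3 stood apart for 3 genes: Gng7 with 832 FPKM where the other saline libraries had 201 to 243 FPKM, Gnal with 163 FPKM where they had 66.3 to 69.8 FPKM, and Ric8b with 56.0 FPKM where they had 15.7 to 22.3 FPKM.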

How the results depend on the processing

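Over the 17 other settings, Kcnj9, Gnaz and Arrb2 kept a positive and Gnai2 a negative difference throughout. For Kcnj9 and Gnaz, whose groups do not overlap, most settings could not have turned the sign. Leaving out 1 library or changing the pseudocount keeps it, and the filters and the block leave the estimate as it was. The number of genes called was 316 with all libraries, 0 to 450 with 1 library left out, 17 without a filter, 5 with the replicate block, 6 with the striatal and 40 with the cortical marker mean as a covariate, the last added once results were known. Without morphine replicates 3 or 4 or saline replicate 2, limma called 0 genes, with 1953, 2136 and 2005 at an unadjusted p under 0.05. With mitochondrial genes removed 78 genes were higher and 213 lower, against 130 and 186 with all genes kept. Of the 10 members, 2 passed with all libraries, 0 to 2 with 1 left out, 1 with mitochondrially encoded genes removed, and 0 without a filter, with the block or with either covariate. Pathway genes that passed numbered 0 to 2 with 1 library left out and 0 otherwise. The cause was not tested. The labels do not state that replicate numbers pair the samples. Deviations from the group means of same-numbered libraries correlated at −0.21 to 0.05, which cannot decide whether they do. The block changed no member's call other than those of Kcnj9 and Gnaz.

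Signs turned mainly with the striatal covariate: Kcnj3 −1.002, Kcnj6 −1.31, Gnai1 −0.46, Gnao1 0.083, Arrb1 0.28, Grk3 −0.40, Gnai3 −0.19, Gnb4 0.23, Gnb1 −0.058, Gng7 0.71, Gng2 −0.15, Grk2 −0.15, Sag −0.21, Gnal 0.28, Gna15 −0.023, Gprin1 −0.27 and Ric8b 0.82, none past the threshold. The striatal mean itself separates the groups completely, so that fit can hardly tell treatment from the covariate. The cortical mean separates them too, by a narrower gap, so fits with it share that limit. With the cortical covariate signs turned for Kcnj3 (−0.13), Kcnj6 (−0.27), Arrb1 (0.059), Grk2 (−0.021) and Sag (−0.021). With 1 library left out, Arrb1 ranged from −0.17 to 0.0090 and Grk5 from −0.026 to 0.12. A minimum FPKM of 5 gave no value for Gna15, Gprin1, Grk5 or Sag. No setting of scale moved the median of all genes by over 0.1. Read depth is unknown, so counting error cannot be set beside these spreads.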
